A study of Mus musculus with 4 samples.

Results

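LTR retrotransposons carried 352 of 1998 pSTAT3-Y705 peaks analysed in mouse LSK cells (Lin-Sca1+cKit+), a bone marrow population of hematopoietic stem and early progenitor cells. Of these LTR peaks, 220 were found in CML-TKI cells, 79 in CML cells and 53 in WT cells. A peak was counted where its deposited annotation named a repeat of class LTR on an autosome or on chromosome X. Peaks nearest to 9 multi-copy or often listed genes, among them Sfi1 and Vmn2r121, were left out. Of 3218 distinct peaks in the table, the 1998 that passed this filter were 1131 in CML-TKI cells, 531 in CML cells and 336 in WT cells, and without the filter 519 peaks were LTR peaks. Each pair of start and end was counted once per library.

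The tyrosine-phosphorylated form of the transcription factor STAT3 was located by ChIP-seq (chromatin immunoprecipitation followed by sequencing) in sorted LSK cells of C57BL/6 mice. CML-TKI cells came from mice with the double transgenic BCR-ABL x SCL-tTA model of chronic myeloid leukemia that had received imatinib, a BCR-ABL kinase inhibitor, by gavage on alternate days. The labels disagree on the schedule: it is 200 mg/kg for 4 weeks in one field and 400 mg/kg for 30 days in another. CML cells came from untreated leukemic mice of the same model and WT cells from untreated wild-type mice. In this model SCL-tTA, a transactivator under SCL gene control, drives BCR-ABL in stem and progenitor cells. How many mice were pooled, and whether the cells came from primary or transplanted mice, is not given in the sources used here. The remaining sample, labelled input with an IgG antibody, had no peaks in the table and was not used. With 1 library per group there were no replicates and no test between groups, and library and condition cannot be told apart. The table held no read counts or enrichment values, and the coverage maps that the study describes were not used here, so the depth behind a peak is not known. The study also describes longer site lists than this table, so a peak missing from a library means only that the table lists none there, and intervals cover counting error over peaks only. Neighbouring peaks are not independent, so these exact 95% intervals are too narrow.

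LTR retrotransposons are remnants of retroviruses and related elements that copied themselves through RNA. An intact element has an internal part with viral genes, marked -int in its name, between a pair of long terminal repeats (LTRs) that hold a promoter. Mouse elements fall into families: ERVK, which includes the still mobile intracisternal A particles (IAP) and early transposons (ETn); ERV1, the gamma-retrovirus-like elements; ERVL; and the non-autonomous MaLR elements, which include the MT and ORR1 repeats. TRIM28 and the histone methyltransferase SETDB1, guided by zinc finger proteins, keep many of them silent, and solo LTRs can act as promoters or enhancers of nearby genes. STAT3 binds DNA as a dimer after phosphorylation at Y705 downstream of cytokine receptors.

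LTR peaks made up between 14.9% and 19.5% of the list in each of the 3 libraries. They were 19.5% (17.2 to 21.9) of 1131 peaks in CML-TKI, 14.9% (12 to 18.2) of 531 peaks in CML and 15.8% (12 to 20.1) of 336 peaks in WT. The intervals overlapped between all pairs of libraries, which does not show that the shares were equal. The larger number of LTR peaks in CML-TKI came with a longer list of peaks, and the LTR share was also the highest there. The table names a repeat only for peaks in intergenic regions or introns, and none of the promoter, exon, UTR or transcription end peaks had one. Among intergenic and intronic peaks alone, the LTR share was 26.2% (23.2 to 29.3) of 841 in CML-TKI, 19.9% (16.1 to 24.2) of 396 in CML and 20.9% (16.0 to 26.4) of 254 in WT. Here the intervals of CML-TKI and CML overlapped only between 23.2% and 24.2%. Among peaks with any repeat name, the LTR class held 46.4% of 474 in CML-TKI, 39.7% of 199 in CML and 38.4% of 138 in WT, again with overlapping intervals.

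ERVK was the leading family in every library. It held 157 of the 220 LTR peaks in CML-TKI (71.4%, 64.9 to 77.2), 50 of 79 in CML (63.3%, 51.7 to 73.9) and 37 of 53 in WT (69.8%, 55.7 to 81.7). MaLR elements had 27 peaks in CML-TKI (12.3%, 8.25 to 17.4), 14 in CML (17.7%, 10 to 27.9) and 2 in WT (3.77%, 0.460 to 13.0). ERV1 elements had 25 peaks in CML-TKI cells (11.4%), 11 in CML cells (13.9%) and 8 in WT cells (15.1%). ERVL was the smallest family in CML-TKI and CML, with 11 peaks in CML-TKI cells (5.0%), 4 in CML cells (5.06%) and 6 in WT cells (11.3%). In each family the intervals of the 3 libraries overlapped, which does not show that the shares were equal. Most LTR peaks lay in the internal part of an element: 152 of 220 in CML-TKI (69.1%, 62.5 to 75.1), 46 of 79 in CML (58.2%, 46.6 to 69.2) and 37 of 53 in WT (69.8%, 55.7 to 81.7).

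The share of LTR peaks in introns was lower in each library than that of the other peaks in intergenic regions and introns. In CML-TKI 36 of 220 LTR peaks were intronic (16.4%, 11.7 to 21.9), against 34.3% (30.6 to 38.2) of 621 other such peaks. In CML 10 of 79 were intronic (12.7%, 6.24 to 22.0), against 36.9% (31.6 to 42.5) of 317 others. In WT 8 of 53 were intronic (15.1%, 6.75 to 27.6), against 29.4% (23.2 to 36.2) of 201 others. The intervals stood apart in CML-TKI and in CML and overlapped in WT.

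Sharing between libraries was compared next, since the study asked where pSTAT3-Y705 lies in imatinib-persistent cells and not in untreated leukemic or normal cells. In CML-TKI 109 of 220 LTR peaks overlapped no peak of another library by 1 bp or more (49.5%, 42.8 to 56.3), and of all CML-TKI peaks left by the filter 48.3% did not. In CML 32 of 79 LTR peaks were in no other library (40.5%, 29.6 to 52.1), against 55.9% of all CML peaks. In WT 2 of 53 were in no other library (3.77%, 0.460 to 13.0), against 2.98% of all WT peaks. The share of CML-TKI and of WT LTR peaks found in 1 library alone was thus near that of all their peaks.

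In each pair of libraries the overlap was counted in both directions. Of the CML-TKI LTR peaks, 75 overlapped a CML peak (34.1%, 27.9 to 40.8), against 33.2% of all CML-TKI peaks, and 70 overlapped a WT peak (31.8%, 25.7 to 38.4), against 36.3%. Of the CML LTR peaks, 47 overlapped a CML-TKI peak (59.5%, 47.9 to 70.4), against 43.9% (39.6 to 48.2) of all CML peaks. The intervals of these CML shares overlapped by less than 1 percentage point. A WT peak was met by 15 of the 79 CML LTR peaks (19.0%, 11.0 to 29.4), against 20.5% of all CML peaks. Of the 53 WT LTR peaks, 51 overlapped a CML-TKI peak (96.2%, 87.0 to 99.5), against 96.7% of all WT peaks, and 24 overlapped a CML peak (45.3%, 31.6 to 59.6), against 47.3%. Almost every LTR peak of WT cells thus overlapped a listed CML-TKI peak. The share of WT LTR peaks in CML was 54.7% within 1 kb instead of by overlap, and 62.5% with the left-out genes and chromosome Y kept. For these settings the share over all peaks was not computed. All 15 CML LTR peaks that met a WT peak also met a CML-TKI peak. The same held for 108 of the 109 CML peaks of any annotation that met a WT peak.

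LINE and SINE peaks, the other large retrotransposon classes, were fewer. In CML-TKI 49.5% of the 220 LTR peaks were in no other library, beside 52.7% of 55 LINE peaks and 43.6% of 55 SINE peaks. In CML 40.5% (29.6 to 52.1) of the 79 LTR peaks were in no other library, beside 71.4% (53.7 to 85.4) of 35 LINE peaks and 44.4% (25.5 to 64.7) of 27 SINE peaks. In CML the LTR interval lay below the LINE interval, and the other intervals overlapped.

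Joining the LTR peaks of all libraries that overlapped gave 197 sites under 56 repeat names. Of these sites, 96 had a peak in CML-TKI alone (48.7%, 41.6 to 55.9), 32 in CML alone (16.2%, 11.4 to 22.2) and 2 in WT alone (1.02%, 0.123 to 3.62). A further 28 had peaks in CML-TKI and CML, 22 in CML-TKI and WT, and 17 in all 3 libraries. No site had peaks in CML and WT without CML-TKI. As given above, almost all CML peaks of any annotation that met a WT peak also met a CML-TKI peak. Peaks of all annotations were not joined into sites, so these patterns have no background of their own. By peaks, 48.3% of all CML-TKI, 55.9% of all CML and 2.98% of all WT peaks were in no other library, as shares of each list. ERVK held 69 of the 96 CML-TKI sites, 19 of the 32 CML sites, 16 of the 22 sites of CML-TKI and WT, and 12 of the 17 sites of all libraries. Of the 31 MaLR sites, 28 had no listed WT peak (90.3%), beside 156 of all 197 sites (79.2%). By library, 15 were in CML-TKI alone, 7 in CML alone and 6 in both, while 1 was in CML-TKI and WT and 2 were in all libraries.

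**Figure D1:**
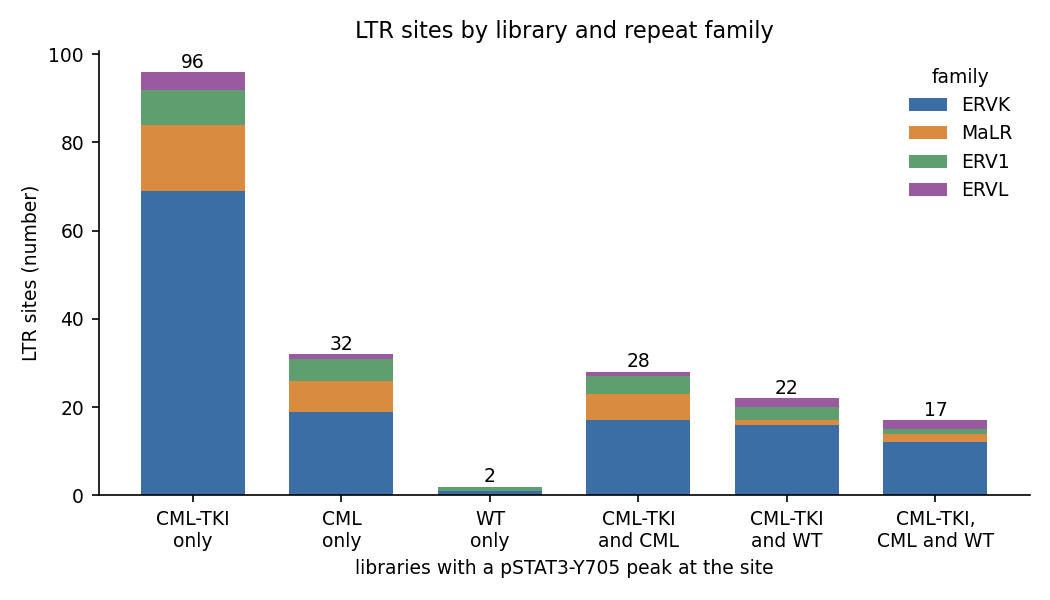
LTR sites (number, y axis) by the libraries with a pSTAT3-Y705 peak at the site (x axis), stacked by repeat family. The 96 sites of CML-TKI alone are the tallest bar and those of WT alone the lowest with 2, and ERVK is the largest part of each bar but the WT one, where ERVK and ERV1 have 1 site each. CML-TKI also has the longest list, 1131 of the 1998 peaks left by the filter.

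One repeat name, RMER16-int, an internal ERVK sequence, accounted for 48 of the 197 sites on 18 chromosomes. It had 74 LTR peaks in CML-TKI (33.6%, 27.4 to 40.3), 14 in CML (17.7%, 10 to 27.9) and 19 in WT (35.8%, 23.1 to 50.2). By sites, 27 were in CML-TKI alone, 1 in CML alone, 6 in CML-TKI and CML, 9 in CML-TKI and WT and 5 in all 3 libraries. RMER16-int was thus 28.1% (19.4 to 38.2) of the 96 sites of CML-TKI alone and 3.12% (0.0791 to 16.2) of the 32 sites of CML alone. These intervals did not overlap. Among the 22 sites of CML-TKI and WT it was 40.9% (20.7 to 63.6). The name was singled out after its counts were seen, so these values are a description.

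RMER16-int sites were intergenic but for 3 in introns, and their median distance to the nearest transcription start site (TSS) was 50390 bp. Their median width was 238 bp, between 139 and 389 bp. In all 3 libraries a site lay in an intron with Ugt1a5, a glucuronosyltransferase gene, as its nearest gene (chr1:90072658-90072947; positions are in build mm9). Its widest peak was 289 bp in CML-TKI, 235 bp in CML and 289 bp in WT. The site nearest to Ccr9, the chemokine receptor that guides lymphocytes to the gut (chr9:123693850-123694060), had peaks of 210 bp in CML-TKI, 140 bp in CML and 210 bp in WT. At both sites the widest CML peak was narrower than the widest peak of the other libraries. The site nearest to Slamf1, which encodes the stem cell marker CD150 (chr1:173654620-173654953, 42456 bp upstream), had peaks of 330 bp in CML-TKI and 333 bp in WT and none in CML. The same pattern was seen 4691 bp upstream of the serpin gene Serpina3j (chr12:105547927-105548207), with 276 bp in CML-TKI and 280 bp in WT. Further RMER16-int sites with 3 LTR peaks in CML-TKI lay near LOC102634431 (chr9:8781165-8781453) and Rfpl4b (chr10:38550159-38550434), both without a CML peak. The 1 site of CML alone lay 6124 bp from the TSS of Ring1, a Polycomb ubiquitin ligase subunit (chr17:34155427-34155576).

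Elements with IAP names had 31 sites under 4 names: IAPEy-int, IAPLTR3-int, IAPEY3-int and IAPLTR3. The names do not tell whether these copies are still mobile. Of these, 11 were in CML-TKI alone, 9 in CML alone, 5 in CML-TKI and CML, 3 in CML-TKI and WT and 3 in all libraries. IAPEy-int had 17 sites, 5 in CML-TKI alone and 5 in CML alone. IAPLTR3-int had 8 sites and none with a WT peak: 4 in CML-TKI alone, 3 in CML alone and 1 in both. IAPEY3-int had 5 sites, none of them in CML alone. One of these, near the T cell transcription factor gene Tox (chr4:7013342-7013618), had peaks of 276 bp in CML-TKI, 174 bp in CML and 174 bp in WT.

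The group of ETn and the related MusD elements had 15 sites under 3 names, of which MMETn-int had 1 site. ETnERV3-int had 8 sites on 7 chromosomes, 7 in CML-TKI alone, 1 in CML alone and none with a WT peak. The CML site (chr5:152318988-152319287, near Vmn2r18) was also the widest ERVK site of CML alone, at 299 bp. ETnERV2-int had 6 sites, 2 in CML-TKI alone, 1 in CML alone, 2 in both and 1 in CML-TKI and WT. Among the other ERVK names, MMERVK10C-int had 7 sites, 4 in CML-TKI alone and 2 in CML alone. RLTR45 also had 7, 4 in CML-TKI alone and none in CML alone. All 4 RMER6A sites were in CML-TKI alone. With 4 to 8 sites a name, these counts leave wide margins. Over all 197 sites, 96 were in CML-TKI alone (48.7%). Of the 14 names with 3 or more sites, some lay above this share and some below.

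The MaLR names were led by MTC with 7 sites, 5 of them in CML-TKI alone. MTD had 6 sites, 3 in CML-TKI alone, 2 in CML alone and 1 in both. ORR1E had 3 sites in 3 different library patterns. The ERVL name RMER15 had 6 sites, of which 2 were in all libraries. The 14 names with 3 or more sites held 147 of the 197 sites. Another 8 names had 2 sites each and 34 had 1.

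**Figure D2:**
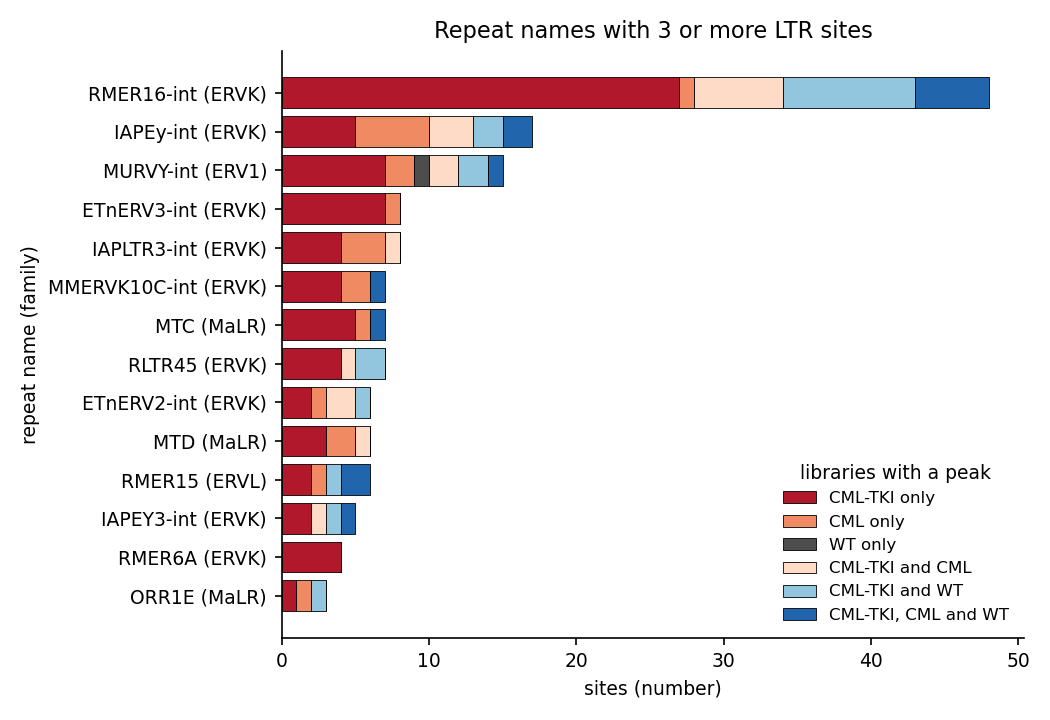
Sites (number, x axis) of the 14 repeat names with 3 or more LTR sites (y axis, family in brackets), coloured by the libraries with a peak. RMER16-int has 48 sites, 27 of them in CML-TKI alone and 1 in CML alone, and the next name, IAPEy-int, has 17.

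MURVY-int, an ERV1 sequence first known from the Y chromosome, had 15 sites on 4 chromosomes, and most stood close together. Upstream of Wdr5, a scaffold subunit of histone H3K4 methyltransferases, 9 sites lay within chr2:27351323-27368050, 8 of them MURVY-int and 1 RLTR13C1. Of these sites, 6 had peaks in CML-TKI alone, 1 in CML-TKI and CML, 1 in CML-TKI and WT and 1 in all libraries. The site in all libraries (chr2:27353245-27353487) had peaks of up to 242 bp in CML-TKI, 187 bp in CML and 242 bp in WT. The widest of the 9 (chr2:27355350-27355883) had peaks of 443 bp in CML-TKI and 533 bp in WT and none in CML. Another MURVY-int site of the cluster (chr2:27357007-27357429) had peaks of 422 bp in CML-TKI and 321 bp in CML and none in WT. Every site of this cluster had a peak in CML-TKI.

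Sites within 10 kb of each other formed 10 such clusters with 31 sites, and 4 clusters had 3 or more sites. Near Gm8267 (chr14:45289794-45293703) 4 IAPEy-int sites spanned 3909 bp: 1 in CML-TKI alone, 1 in CML-TKI and WT and 2 in all libraries. Nearest to Osbpl10, a lipid transfer protein gene, 3 MURVY-int sites lay in an intron (chr9:115059993-115061473), and 3 IAPEy-int sites lay upstream of Armc4 (chr18:7320164-7321494). In both of these clusters 1 site was in CML-TKI alone, 1 in CML-TKI and CML and 1 in CML-TKI and WT. Such neighbouring sites lie in the same or adjacent elements and are not independent. On chromosome X, both IAPLTR3-int sites near Mycs (chrX:5135279-5136612) were in CML alone.

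LTR peaks were narrow in all libraries. The median width was 209 bp (194 to 226) in CML-TKI, 193 bp (168 to 209) in CML and 242 bp (194 to 280) in WT, over 215 CML-TKI, 77 CML and 49 WT peaks with ends, a few of them taken from another library. All peaks left by the filter had medians of 195 bp in CML-TKI, 178 bp in CML and 234 bp in WT, in the same order. LTR peaks in no other library had lower median widths than shared ones. The medians were 188 bp (173 to 206) against 236 bp (210 to 268) for shared peaks in CML-TKI, and 161 bp (149 to 173) against 226 bp (194 to 267) in CML. Over all peaks the medians were 184 bp against 214 bp in CML-TKI and 163 bp against 200 bp in CML. A width of 500 bp or more was reached by 3 LTR peaks in CML-TKI, none of 77 in CML (read as at most 3 peaks, a share of up to 3.90%) and 2 in WT.

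**Figure D3:**
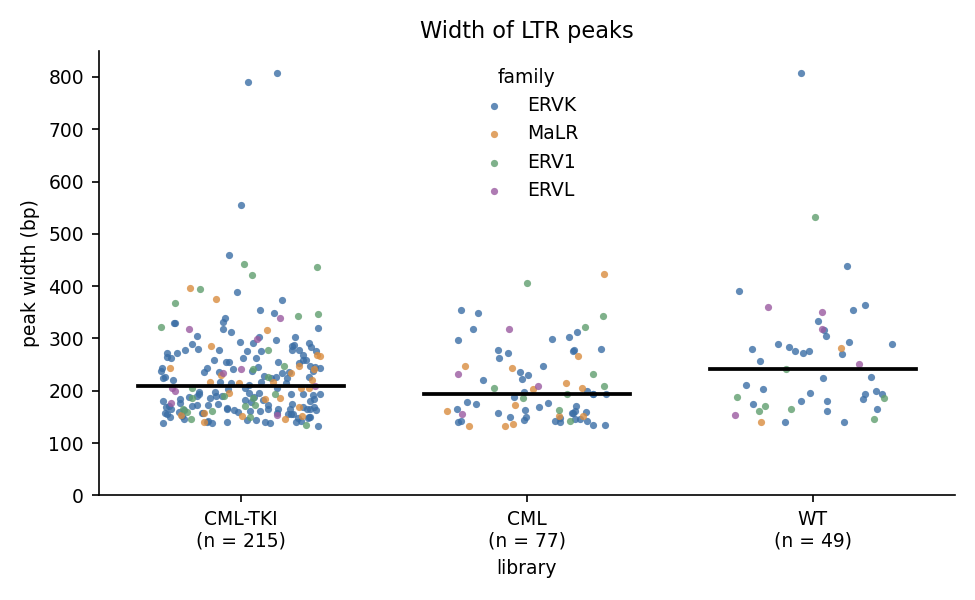
Width of each LTR peak with ends (bp, y axis) in CML-TKI (n = 215), CML (n = 77) and WT (n = 49), coloured by family, with a black line at the median and points spread sideways for clarity. The upper quartile is 268 bp in CML-TKI, 248 bp in CML and 293 bp in WT, and the medians are 209 bp in CML-TKI, 193 bp in CML and 242 bp in WT.

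The widest LTR site was an RMER6B element 3410 bp upstream of Eif4enif1 (chr11:3098541-3099348), which encodes a transporter of the translation factor eIF4E. Its widest peak was 807 bp in CML-TKI, 307 bp in CML and 807 bp in WT, with the same start and end in CML-TKI and WT. The CML peak overlapped this site but was not one of the counted LTR peaks. CML-TKI had another peak of 791 bp there. An RLTR33 element near Gm14496 (chr2:181665099-181665654) followed with 555 bp in CML-TKI and 355 bp in WT. The CML peak there had rounded ends and was given those of another library. The widest LTR peak of CML, 424 bp, lay on an ORR1C2 element 1630 bp upstream of Maml2, a Notch coactivator (chr9:13422661-13423085), where CML-TKI had 396 bp and WT no peak. An RLTR5_Mm element near the microRNA processing gene Drosha (chr15:12891303-12891709) had a CML peak of 406 bp and also lacked a WT peak. An RLTR45 element near the corepressor gene Tbl1xr1 (chr3:21634645-21634993) had the same 348 bp peak in CML-TKI and CML. In WT an RLTR11A element near Vmn1r238 (chr18:3005597-3006107) had peaks of 438 and 390 bp, and the site was present in the other libraries too. These widest sites were thus shared by 2 or 3 libraries. The widest site of CML-TKI alone was 436 bp of MURVY-int 1208015 bp upstream of Lphn3 (chr5:80242385-80242821).

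At the 17 sites found in all libraries the widest peak listed was mostly narrower in CML, in counts that rest on few sites. CML had at most 1 counted LTR peak at each of these sites, while CML-TKI had 2 or 3 at most of them. The widest CML peak was thus drawn from fewer listed peaks. At the Ugt1a5 site, the 235 bp CML peak had the same start and end as the narrowest of 3 CML-TKI peaks. The median of the widest peak per site was 297 bp in CML-TKI, 267 bp in CML and 289 bp in WT. CML-TKI was wider than CML at 13 sites and equal at 4, and WT was wider than CML at 14 and equal at 3. Some of these ends were taken from another library. With ends that the library itself lists in full, which 16 sites have in every library, CML-TKI was wider than CML at 12, equal at 3 and narrower at 1, and WT was wider than CML at 14 and equal at 2. With ends taken from another library included, CML-TKI was wider than WT at 6 sites, equal at 5 and narrower at 6. With own ends only, it was wider than WT at 6, equal at 4 and narrower at 7. On the MTC element nearest to Tgfbr2, a TGF-beta receptor gene (chr9:115986692-115987068), the widths were 376 bp in CML-TKI, 267 bp in CML and 281 bp in WT. On the MTEa element nearest to Atp1b3, a sodium pump subunit gene (chr9:96299976-96300293), they were 398 bp in CML-TKI, 298 bp in CML and 480 bp in WT, counting overlapping peaks with another annotation. The 2 RMER15 sites had 339 bp in CML-TKI, 318 bp in CML and 361 bp in WT near Ppapdc3 (chr2:31945227-31945588), and 298 bp in CML-TKI, 209 bp in CML and 251 bp in WT near Lrrc20 (chr10:60937040-60937338). At the RMER16-int site near Cst10 (chr2:149126574-149126850) the peak listed with full ends was 227 bp in CML-TKI, 276 bp in CML and 276 bp in WT. That near Megf9 (chr4:70956554-70956943) was 389 bp in CML-TKI, 280 bp in CML and 293 bp in WT, and that near Ankrd16 (chr2:11858047-11858320) was 273 bp in CML-TKI, 230 bp in CML and 256 bp in WT. The MMERVK10C-int site near Zfp157 (chr5:138929304-138929593) was 157 bp in CML-TKI, 144 bp in CML and 289 bp in WT. Over the 44 sites with widths in CML-TKI and CML, whether or not WT had a peak, CML-TKI was wider at 20, equal at 20 and narrower at 4. With own ends only, over 42 sites, it was wider at 19, equal at 17 and narrower at 6. Width depends on depth and on the peak caller, and the widest peak of a site also on how many peaks are listed there. The part of these in the differences was not tested.

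**Figure D4:**
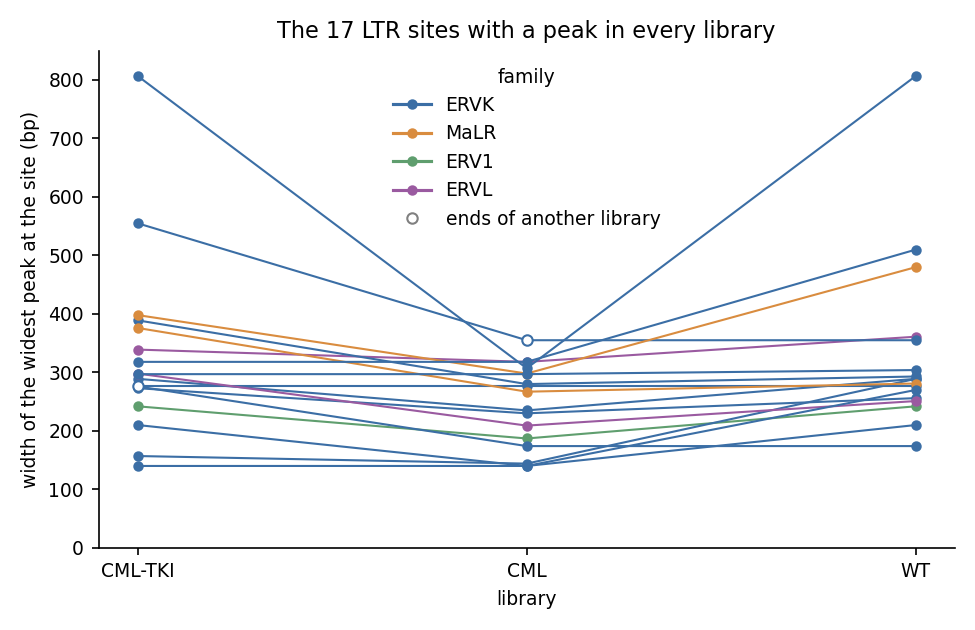
Width of the widest peak (bp, y axis) in CML-TKI, CML and WT (x axis) at the 17 LTR sites with a peak in every library, where lines join the values of 1 site, colours give the family and open points mark ends taken from another library. CML-TKI is wider than CML at 13 sites, and the RMER6B site near Eif4enif1 stands out with 807 bp in CML-TKI, 307 bp in CML and 807 bp in WT. The CML peak at that site is not one of the counted LTR peaks.

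Many overlapping peaks had exactly the same ends in different libraries. Of the CML LTR peaks with full ends that overlapped a CML-TKI peak, 29 of 44 had the same start and end as a CML-TKI peak (65.9%, 50.1 to 79.5), beside 74.3% (68.1 to 79.9) of all such CML peaks. Of the WT LTR peaks, 21 of 45 had the ends of a CML-TKI peak (46.7%, 31.7 to 62.1) and 4 of 23 those of a CML peak (17.4%, 4.95 to 38.8). Over all such WT peaks these shares were 48.6% (42.8 to 54.5) and 26.1% (19.4 to 33.7). Peaks were also listed more than once in a library. In CML-TKI 63 of 108 LTR peaks found there alone were listed 3 or more times (58.3%, 48.5 to 67.7), against 13 of 98 shared ones (13.3%, 7.26 to 21.6). Over all CML-TKI peaks these shares were 54.6% and 12.3%. None of the 31 LTR peaks of CML alone was listed 3 or more times. The sources used here do not say why entries repeat, and the part of this in the library patterns was not tested.

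No LTR peak lay within 1 kb of a TSS. A count of 0, read as at most 3 peaks, allows a share of up to 1.36% in CML-TKI cells, 3.80% in CML cells and 5.66% in WT cells. Since the table gives no repeat names to peaks in promoter regions, this count follows in part from the annotation. Among other intergenic and intronic peaks, 24 of 621 in CML-TKI, 19 of 317 in CML and 6 of 201 in WT lay within 1 kb. Within 5 kb there were 18 LTR peaks in CML-TKI (8.18%, 4.92 to 12.6), against 16.4% (13.6 to 19.6) of the other such peaks. In CML there were 6 (7.59%, 2.84 to 15.8), against 18.9% (14.8 to 23.7), and in WT 4 (7.55%, 2.09 to 18.2), against 13.9% (9.46 to 19.5). The intervals stood apart in CML-TKI alone. The median distance of an LTR peak to the nearest TSS was 36580 bp (24981 to 46678) in CML-TKI, 51373 bp (29894 to 75520) in CML and 30846 bp (15096 to 53851) in WT. For the other such peaks it was 29703 bp (24541 to 35837) in CML-TKI, 25289 bp (21568 to 31601) in CML and 48750 bp (29703 to 56632) in WT. The LTR median was thus the larger one in CML-TKI and CML and the smaller one in WT, with overlapping intervals in each library. ERVL peaks were the closest family, with medians of 6088 bp in CML-TKI, 4176 bp in CML and 5744 bp in WT, over 11, 4 and 6 peaks.

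**Figure D5:**
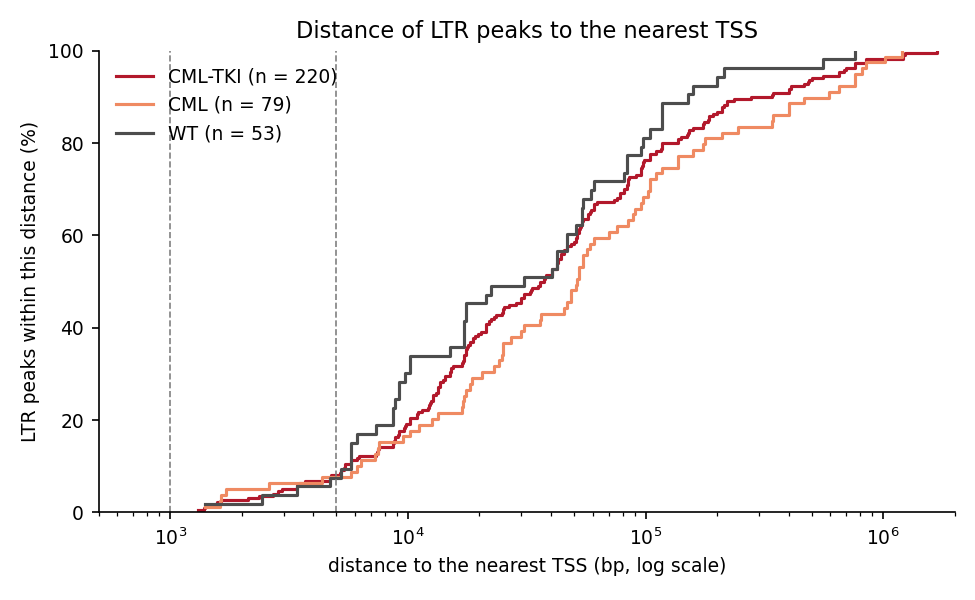
Cumulative share of LTR peaks (percent, y axis) by distance to the nearest TSS (bp, log scale, x axis) in CML-TKI (n = 220), CML (n = 79) and WT (n = 53), with dashed lines at 1 kb and 5 kb. No curve starts before 1 kb, and about 8% of the LTR peaks of each library lie within 5 kb.

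The sites within 5 kb of a TSS numbered 18, 9 in CML-TKI alone, 4 in CML alone, 1 in WT alone and 4 in more than 1 library. Of CML-TKI alone, the nearest was an intronic MTC element nearest to Tctn2, a ciliary transition zone gene (chr5:125049977-125050146, 1303 bp). It was followed by RLTR45 near Sycn, a zymogen granule protein gene (chr7:29324249-29324417, 1571 bp upstream), and MYSERV6-int near 2210409E12Rik (chr11:88831745-88831892). An intronic MTD element had Susd1 as its nearest gene (chr4:59449064-59449221). The other CML-TKI sites were RLTR13C1 near Wdr5 (chr2:27367887-27368050), RLTR45 near the mismatch repair gene Msh6 (chr17:88371455-88371653), an intronic RMER6A nearest to Gm13247 (chr4:145680029-145680307), an intronic MTE2a nearest to Ipcef1 (chr10:3362474-3362694) and RMER15 near Srd5a3, a gene of dolichol synthesis (chr5:76565481-76565715). These 9 peaks were 147 to 278 bp wide.

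Of CML alone, the sites within 5 kb were an intronic RLTR4_Mm nearest to 0610039K10Rik (chr2:163468853-163469085), MTE2a near Srgn, the granule proteoglycan serglycin of blood cells (chr10:61972153-61972289, 1718 bp upstream), RMER15 near the cell cycle gene Lin9 (chr1:182568593-182568748) and MTC near the ribosomal protein gene Rpl26 (chr11:68710634-68710837). In WT alone an RMER6B element lay near 2210409E12Rik (chr11:88831431-88831592), 2441 bp upstream. The CML-TKI site near the same gene was a separate site under another repeat name, with no overlapping WT peak. Whether both lie in the same element is not given. The sites in more than 1 library were those near Lrrc20, Eif4enif1, Maml2 and Serpina3j described above. MaLR elements held 6 of the 18 sites, ERVK 8, ERVL 3 and ERV1 1.

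Of the 946 genes nearest to any peak left by the filter, 170 (18.0%) were nearest to an LTR peak, and the gene lists of blood and STAT biology held too few genes to be set against this share. None of 40 STAT3 target genes was nearest to an LTR peak, whereas 7 were nearest to a peak of any kind. For JAK-STAT genes the counts were 0 with an LTR peak and 4 with any peak, and for myeloid genes 0 and 2. Of the cytokine receptors, 2 of the 4 with a peak had an LTR peak: Tgfbr2, given above, and Csf2ra, the GM-CSF receptor alpha chain. Csf2ra was nearest to an RLTR33 site in CML-TKI and CML (chr19:61339985-61340263) and an RLTR11A2 site in CML-TKI alone (chr19:61341584-61341740), 35803 and 37341 bp upstream. Slamf1 was the 1 stem cell regulator of 5 with a peak that had an LTR peak. The lists of B cell, T and NK cell, erythroid, and interferon and nucleic acid sensing genes had none with an LTR peak and 0, 1, 1 and 1 with any peak. Among 38 genes of ERV silencing, 2 of the 4 with a peak had an LTR peak, both of RMER16-int in CML-TKI alone. One lay 20252 bp upstream of Setdb1 (chr3:95181298-95181455, 157 bp wide) and the other 25265 bp upstream of Zfp932, a zinc finger gene, where the table gives no full ends. The nearest gene is a position in the annotation, and no expression was measured in these libraries.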

How the data were processed

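Sorted LSK cells were subjected to ChIP with an antibody to pSTAT3-Y705. By the study's methods, duplicates and adapters were removed, reads were aligned with bwa mem, and peaks of 4 callers were merged within 100 bp and annotated with HOMER. The submitters' processing notes name Partek 8.0, mm9 and mm10. Whether the table came from these steps is not given in the sources used here. The deposited table lists, per the file headers, the positions, region, repeat annotation and distance to the TSS of each peak, with no score or count. By the same methods, fold change over input counted uniquely mapped reads only. How reads that map to several copies of a repeat entered the peak calls is not given in these sources. Of its 6024 entries, 703 were LTR entries left by the filter (489 in CML-TKI cells, 135 in CML cells and 79 in WT cells).

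Full ends on 6 chromosomes passed the GRCm38 lengths, so positions are given as mm9, and no sequence was printed and no STAT motif searched. Ends rounded to 1 Mb (91 LTR entries) were dropped where the same library listed the same accession and distance with full ends, or took the ends of another library. Failing both (5 LTR peaks in CML-TKI cells, 2 in CML cells and 4 in WT cells), a peak was taken as 200 bp wide and compared through its distance to a shared TSS. A library had a peak at a site where any of its peaks, of any annotation, overlapped the site by 1 bp. Shares have exact Clopper-Pearson 95% intervals and medians order-statistic intervals. The steps were tested on simulated data.

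The members, gene lists and alternatives were chosen with earlier results of these data known. Named were repeat names with 3 or more sites, the 5 widest LTR peaks per library, sites within 5 kb of a TSS, sites near listed genes, sites with 3 or more LTR peaks of 1 library, the widest site per family and library pattern, and sites in all libraries, of which those that add to the text are printed. Other sites (Ring1, the clusters, Mycs) were chosen after their values were seen. The software was scipy 1.17.1, pandas 2.3.3, numpy 2.4.6 and matplotlib 3.10.9 under Python 3.11.15.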

Additional observations from a re-analysis of the deposited data

Results flagged for a closer look

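LTR peaks also lay outside the counted set, on chromosome Y and at the genes left out, and they are given here because the report's comparisons leave them out and they enter only as an alternative setting. On chromosome Y there were 46 in CML-TKI cells, 14 in CML cells and 32 in WT cells. At the left-out genes there were 38 in CML-TKI cells, 10 in CML cells and 27 in WT cells, of which 36 lay nearest to Vmn2r121, 30 to Sfi1, 8 to Lrrc4c and 1 to Pisd-ps3. Of 112 LTR peaks of WT cells in all, 53 were in the counted set. The repeat names differed: MMERGLN-int had 21 peaks on Y and 1 in the counted set, MuRRS4-int 20 and 1, and RMER16-int none on Y.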

How the results depend on the processing

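Of 243 values under alternative settings, 191 stayed near the reported value and 52 moved. No paired analysis was possible because a group held 1 library. Sharing between libraries was computed under these settings for LTR peaks only. The shares below thus have no value over all peaks beside them and show nothing particular to LTR peaks. With overlapping peaks of a library merged, 59.3% of CML-TKI LTR peaks were in no other library, 27.2% overlapped CML and 23.5% WT. With every entry counted there were 489 LTR entries in CML-TKI and 135 in CML, and the CML-TKI shares were 62.4% in no other library, 23.5% in CML and 25.6% in WT. Over intergenic peaks only, LTR elements held 31.1% in CML-TKI cells, 25.7% in CML cells and 24.1% in WT cells.

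With the left-out genes and chromosome Y kept, WT had 112 LTR peaks. ERVK fell to 59.5% in CML-TKI and 42.9% in WT, and MaLR reached 21.7% in CML-TKI and 25% in WT. In CML-TKI 39.8% of LTR peaks were then in no other library, 42.8% overlapped CML and 45.7% WT. The shares were 35.9% for CML in WT and 62.5% for WT in CML, and the median width was 231 bp in CML-TKI and 318 bp in WT. The MaLR share in WT thus depended on this filter. Without RMER16-int, an alternative chosen after seeing the data, ERVK held 56.8% in CML-TKI and 52.9% in WT, and in CML-TKI MaLR held 18.5% and ERV1 17.1%. Within 5 kb instead of 1 kb of a TSS lay 8.18% of LTR peaks in CML-TKI cells, 7.59% in CML cells and 7.55% in WT cells.

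Peaks of at least 500 bp left only 3 LTR peaks in CML-TKI cells, 0 in CML cells and 2 in WT cells, so shares of these are of little use, and for CML none but the LTR share could be given. LTR elements held 7.14% of such peaks in CML-TKI cells, 0% in CML cells and 5.71% in WT cells. In CML-TKI ERVK held 100% and MaLR, ERV1 and ERVL 0% each, 33.3% were in no other library, 0% overlapped CML and 66.7% WT, and the median width was 791 bp. In WT ERVK and ERV1 held 50% each and MaLR and ERVL 0% each, 50% were in no other library, 50% overlapped CML-TKI and 0% CML, and the median width was 670 bp.

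No value moved with rounded ends taken as listed, an overlap of 50% of the peak, a distance of 1 kb, LTR partners only, or, all added after seeing the data, without the Wdr5 locus, the peaks with no full ends or, for widths, the ends taken from another library. Moved here means outside the interval of the reported value. Numbers of LTR peaks have no interval and were held to a fixed fold limit instead. Against 220 in CML-TKI, 304 with the left-out genes and chromosome Y kept was within this limit. The 489 with every entry counted was outside it. With no read counts, what depth limits could not be measured.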
